A study of Mus musculus with 8 samples.

Results

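Heme is made from glycine and succinyl-CoA by a chain of enzymes that begins and ends in the mitochondrion and passes through the cytosol in between. The first step sets the rate, and it has 2 isozymes: Alas2 is used by red cell precursors and Alas1 by other cells. The last enzyme, ferrochelatase, puts iron into protoporphyrin. Red cell precursors make far more heme than other cells, nearly all of it for hemoglobin.

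The genes described here are the enzymes Alas1, Alas2, Alad, Uros, Urod, Cpox, Ppox and Fech, and Tmem14c, which encodes an inner mitochondrial membrane protein needed for porphyrin transport. They were chosen by name, as the probes whose array annotation gives 1 of these symbols. These are 9 of the 19057 genes with a named probe, and 20 of the 45281 probes. The enzymes cover 7 of the 8 steps of the pathway, and the third step is not analysed here.

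Illumina bead arrays were used to compare KAP1 knockout (KO) with wild-type (WT) cells by the fluorescence of a probe for each transcript. The 4 KO samples carry the codes A4, A8, A11 and A13, and the 4 WT samples the codes C4, C6, C8 and C9; values are listed below in these orders. KAP1, the product of Trim28, represses genes to which zinc finger proteins bring it. All samples were CD71+Ter119+ cells sorted from bone marrow of mice of mixed strain aged 8 to 12 weeks, and the labels of both groups name the alleles Kap-flox and stopfloxYFP. The labels name neither the Cre line that deletes the floxed gene nor the animal behind each sample. Each p-value therefore reflects sample-to-sample spread that may be partly technical.

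Trim28 was 3.28-fold lower in KO (adjusted p = 0.0085 in limma), with intensities of 131 to 207 in KO and 395 to 740 in WT. Its call was lost with no filter on dim probes (adjusted p = 0.0925) and with the authors' deposited p-values (adjusted p = 0.0903). Tfrc, which encodes CD71, read 4025 to 14924 over the 8 samples, and the erythroid factor Klf1 read 2286 to 3381. Of 14 erythroid identity genes 11 had a probe, and 1 of these, Epb42, lay at the lowest value of the table in every sample. That value, an intensity of 20, is a floor that hides lower signals. Of the 10 tested, 7 had a difference below 0 and 1 passed, the beta globin gene Hbb-b2 (4.15-fold lower in KO, adjusted p = 0.0405 in limma). Its probe read 136 to 604 in KO and 834 to 1482 in WT. The far brighter globin probes of Hbb-bt, Hbb-bs and Hba-a1 read between 17868.5 and 36264.5, the top of the scale. They did not pass, with log2 differences of -0.12, -0.04 and -0.26 (adjusted p = 0.667, 0.901 and 0.398). Slc4a1, which encodes an anion exchanger of the red cell membrane, was 1.55-fold lower without overlap (adjusted p = 0.0712). Among all 7178 tested genes, 2993 had a difference below 0 and 3.25% passed as lower. Transcripts of other cells were also detected, and 13 tested neutrophil and myeloid genes, none of which passed the test and with Mmp8 at the floor, had a mean log2 intensity of 10.3 to 11.5 in the KO samples and 9.74 to 11.3 in the WT samples. KO sample A8 stood apart. Of 4993 probes above an intensity of 100 in the other 3 KO samples, 189 (3.79%) were at least 8-fold below the lowest of them in A8, against at most 17 such probes in any other array. Results that rest on A8 are therefore given with and without it.

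Alas2, the erythroid first enzyme, and Tmem14c were the members that passed the test, in opposite directions, so their promoters are printed. The windows run from 250 bases before to 50 bases after the annotated start of the gene and come from RefSeq (GRCm38.p6). Capitals mark AGATAA and CCACCC on either strand (TTATCT and GGGTGG are the reverse). AGATAA is a form of the letters bound by GATA factors such as the erythroid factor GATA1. CCACCC gives letters of the CACC boxes bound by KLF factors. Other forms of either were not searched for. The Alas2 window is chrX:150547167-150547466 on the plus strand, and that of Tmem14c is chr13:41016000-41016299 on the plus strand.
Alas2: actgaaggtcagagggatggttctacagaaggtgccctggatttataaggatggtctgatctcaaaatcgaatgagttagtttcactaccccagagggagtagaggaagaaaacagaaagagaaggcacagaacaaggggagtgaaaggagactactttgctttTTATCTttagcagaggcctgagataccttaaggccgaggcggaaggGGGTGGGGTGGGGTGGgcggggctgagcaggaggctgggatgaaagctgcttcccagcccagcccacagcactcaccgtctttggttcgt
Tmem14c: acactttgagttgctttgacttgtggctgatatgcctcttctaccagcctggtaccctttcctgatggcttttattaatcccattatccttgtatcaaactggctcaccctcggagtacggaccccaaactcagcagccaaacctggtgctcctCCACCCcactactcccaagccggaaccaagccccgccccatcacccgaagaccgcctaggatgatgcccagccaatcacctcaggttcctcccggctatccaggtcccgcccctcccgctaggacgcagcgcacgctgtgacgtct

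The Alas2 window held TTATCT at position -86 and GGGTGG at -40, -35 and -30 from the start, neighbouring matches of the latter sharing 1 base. The Tmem14c window held CCACCC at -96 and no AGATAA. In all, 11 windows matched 8 members by symbol, and Fech was not matched. AGATAA was found in windows of 2 of these members (Alas2, and Cpox at position 5) and CCACCC in windows of 3 (Alas1, Alas2 and Tmem14c). Among all 27025 genes of the table, 12.7% had a window with the first and 34% one with the second on either strand. A match is a description of the letters and not evidence of binding.

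A probe was tested if 4 or more of the 8 arrays read it above the floor, which 17 of the 20 member probes did. The other 3, all of Cpox, were at or near the floor. Of the 17, 2 were higher in KO, 1 was lower and 14 did not pass an adjusted p of 0.05 in limma, over all 12259 tested probes. Among all tested probes, 2.46% were higher and 3.11% lower. Every KO sample lay above every WT sample at 2 member probes and below at 4, and 11 overlapped. Among all tested probes, 10.5% lay above and 7.31% below without overlap. The median log2 difference was -0.04 over the 17 probes and 0.09 over all tested probes. With each gene represented by its brightest tested probe, it was 0.27 over the 9 members and 0.11 over all 7178 tested genes, so the side of the background depends on how probes are counted.

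**Figure D1:**
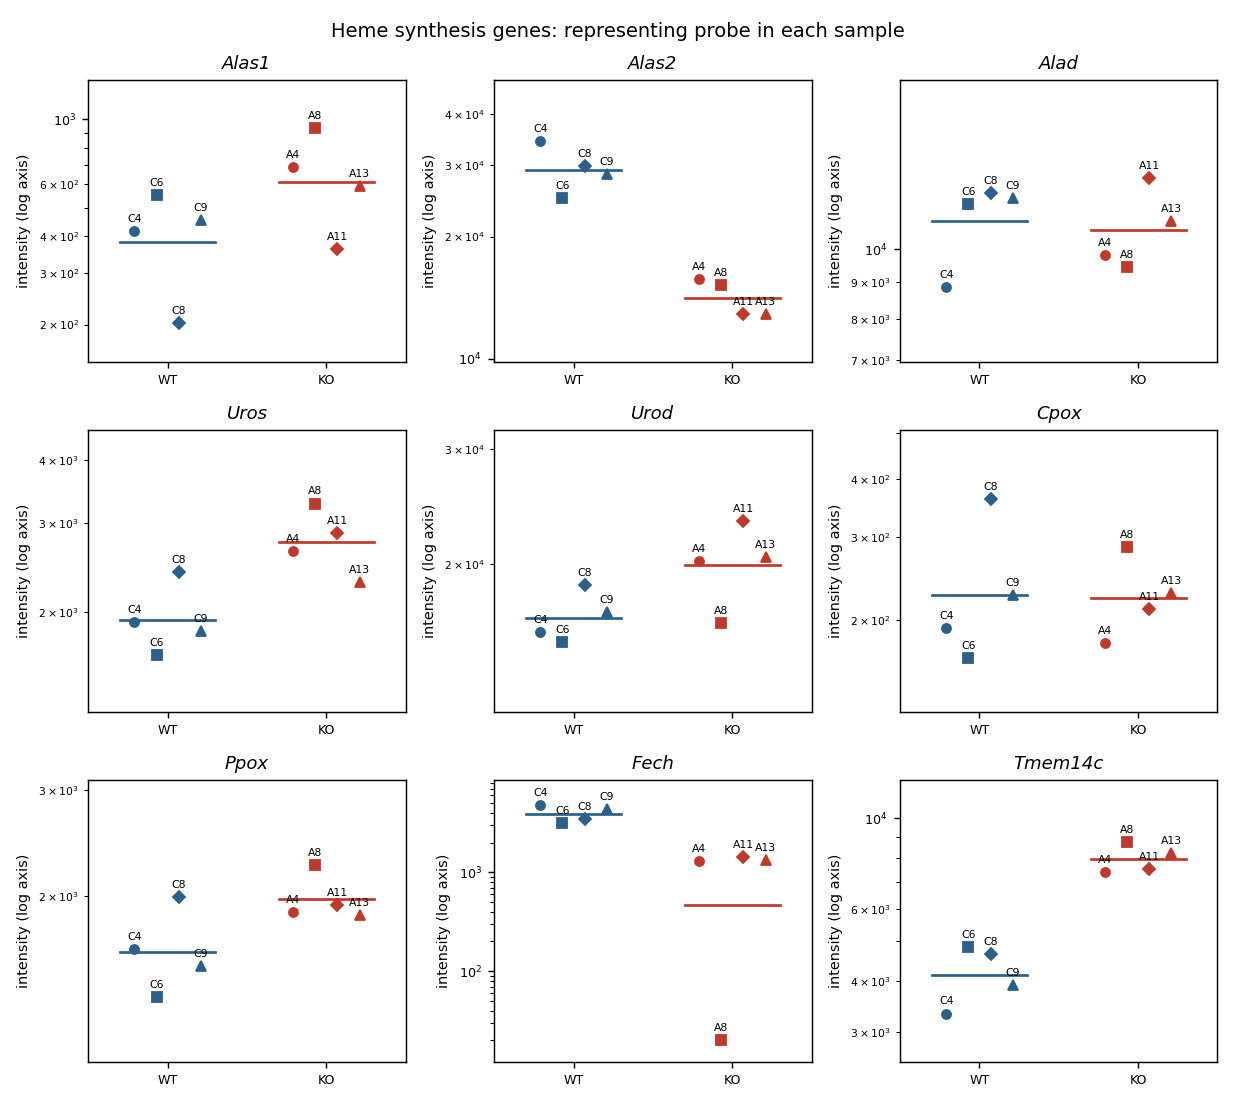
Intensity of the brightest tested probe of each heme synthesis gene (log axis, a panel per gene), with WT samples in blue, KO samples in red and lines at the geometric mean of the 4 samples. Alas2 is lower and Tmem14c higher in every KO sample, Fech is lower in every KO sample with A8 at the floor of 20, and the other genes overlap.

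Alas2 was lower in every KO sample. The KO intensities at its single probe were 15744.5, 15184.5, 12924 and 12924, and the WT intensities were 34336, 24886, 29842 and 28570. The groups were far apart relative to their own spread, the brightest KO sample being well below the dimmest WT sample. In log2 intensity the KO mean was 13.79 ± 0.15 (SD, n = 4) and the WT mean 14.83 ± 0.19, so that Alas2 was 2.07-fold lower (log2 difference -1.05, SE 0.18, adjusted p = 0.0132 in limma). The WT values approached 36264.5, the top of the scale on all arrays, which limits how far they could rise. The call was lost without A13 (adjusted p = 0.0521) and kept without any other sample, with log2 differences from -1.12 to -0.97.

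Alas1, the isozyme of the same step in other tissues, did not follow Alas2. Its KO values were 689, 934, 361 and 593 and its WT values 415, 553.5, 202 and 454.5, and the groups overlapped. The log2 difference was 0.68 (95% interval -0.17 to 1.52, adjusted p = 0.295 in limma). The lowest sample of each group, A11 in KO and C8 in WT, was also the lowest of its group in the mean of the neutrophil and myeloid markers, at 10.3 and 9.74. A11 and C8 were likewise lowest of their groups in the macrophage mean (6.62 and 6.79) and the T and NK cell mean (4.94 and 5.03). They were also lowest in the mast cell and basophil mean (6.80 and 5.88). In the B-cell, megakaryocyte and erythroid lists another sample was lowest in KO, in WT or in both. The part of any of these cells in the Alas1 signal was not tested.

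Within each sample, the log2 ratio of Alas1 to Alas2 sets the isozymes against each other. The KO ratios were -4.51, -4.02, -5.16 and -4.45, and the WT ratios -6.37, -5.49, -7.21 and -5.97. Every KO ratio was above every WT ratio, with a mean of -4.54 ± 0.47 against -6.26 ± 0.73 (n = 4 each). The difference of 1.72 had a two-sided exact permutation p of 0.0286, the smallest that 4 samples against 4 can give, and this ratio was chosen after the values were seen. It is made up of the Alas1 difference of 0.68, which did not pass, and the Alas2 difference of -1.05, which did. Alas2 separated the groups by itself, so this p is not independent of the Alas2 call and does not show a change of Alas1.

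The enzymes between the ends of the pathway did not pass. Alad, the cytosolic enzyme of the second step that joins 2 aminolevulinate molecules into porphobilinogen, read 9461 to 12577 in the KO samples and 8863 to 11990 in the WT samples. Its log2 difference was -0.04 (95% interval -0.47 to 0.38, adjusted p = 0.900 in limma), so a change of the size seen for Alas2 lies outside the interval. Urod, which removes carboxyl groups from uroporphyrinogen, had KO values of 20268, 16263, 23305 and 20541 and WT values of 15744.5, 15184.5, 18598 and 16893. The KO samples other than A8 were above all WT samples, and the log2 difference was 0.27 (95% interval -0.14 to 0.68, adjusted p = 0.384). Cpox, the mitochondrial oxidase of the sixth step, overlapped at its single tested probe, with 179 to 286 in KO and 166 to 362 in WT (log2 difference -0.02, 95% interval -0.64 to 0.59, adjusted p = 0.967).

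Uros, which closes the porphyrin ring, had 3 tested probes, and they disagreed in A8. The brightest (ILMN_2452383) had KO values of 2639, 3279, 2868 and 2295 and WT values of 1912.5, 1648, 2399.7 and 1837. KO samples were mostly higher, with C8 above A13, and the log2 difference of 0.51 did not pass (95% interval 0.07 to 0.95, adjusted p = 0.152 in limma). At the next probe (ILMN_2498173) A8 read 73.3, against 1832 to 2437 in the other KO samples and 1356 to 1432 in WT. The log2 difference there was -0.63 with A8 and 0.58 without it (adjusted p = 0.0980 without it). The third probe was dim, between the floor and 69.5, and overlapped between the groups.

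Ppox, the mitochondrial oxidase of the seventh step, repeated this pattern. Its brighter probe (ILMN_2826816) read 1859 to 2250 in KO samples and 1361 to 1993 in WT samples (log2 difference 0.29, 95% interval -0.12 to 0.71, adjusted p = 0.351 in limma). A8 was the brightest KO sample at that probe. At the other probe (ILMN_2706938) A8 lay at the floor of 20, while A4, A11 and A13 read 466, 368 and 319 and C4, C6, C8 and C9 read 173, 188, 225 and 231. Without A8 this probe was 1.87-fold higher in KO and passed narrowly (log2 difference 0.90, adjusted p = 0.0468), whereas with A8 the log2 difference was -0.16.

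Fech, the ferrochelatase, was lower in KO on average at all 4 of its probes, and at 3 of them every KO sample was below every WT sample. The brightest probe (ILMN_1228534) had KO values of 1293, 20, 1413 and 1343 and WT values of 4827, 3139, 3495 and 4365. A4, A11 and A13 lay close together, A8 was at the floor, and WT samples were all above. The SD of the KO log2 values was 3.04 with A8 and 0.064 without it. With all samples the difference was 8.28-fold and did not pass (log2 difference -3.05, SE 1.24, adjusted p = 0.168 in limma). Without A8 it was 2.89-fold and passed (log2 difference -1.53, SE 0.21, adjusted p = 0.00637).

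The next Fech probe (ILMN_2710731) behaved alike. Its KO values were 720, 22.4, 638 and 673 and its WT values 2005, 1446, 1197 and 2234, so A8 was again far below the other KO samples. It was 5.79-fold lower with A8 (adjusted p = 0.165 in limma) and 2.47-fold lower without it (adjusted p = 0.0263). At the 2 dim Fech probes A8 lay within the range of the other KO samples. ILMN_1229519 had KO values of 62.6, 72.3, 165 and 136 and WT values of 263, 147, 445 and 245, with A11 above C6 as the only overlap (2.54-fold lower, adjusted p = 0.0892). ILMN_1252066 read 21.9 to 27.9 in KO samples and 34.7 to 64.4 in WT samples, with no overlap (1.90-fold lower, adjusted p = 0.0514). Without C6, both dim probes passed (adjusted p = 0.0458 and 0.0221).

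Tmem14c was higher in KO on average at all 3 of its probes, 2 of which passed. ILMN_2435206 had KO values of 7396, 8742, 7506 and 8210 and WT values of 3336.5, 4835, 4669.6 and 3909. Every KO sample exceeded every WT sample, and the KO mean was 1.92-fold the WT mean. Log2 intensities averaged 12.96 ± 0.11 (SD, n = 4) against 12.02 ± 0.25 (log2 difference 0.94, SE 0.19, adjusted p = 0.0231 in limma). ILMN_2849680 read 5051.5 to 6372 in KO samples and 2238 to 3764.5 in WT samples, 1.89-fold higher without overlap (adjusted p = 0.0379). At the third probe (ILMN_2472110) A8 read 2295, below all WT samples (3764.5 to 4749.6), while A4, A11 and A13 read 7869, 6834 and 7396. That probe was 1.26-fold higher with A8 (adjusted p = 0.610) and 1.69-fold higher without it (adjusted p = 0.0490). The call at ILMN_2435206 was kept without A8, C6 or C8, and that at ILMN_2849680 only without C6, with adjusted p up to 0.0771 and 0.111 when another sample was left out. Both calls were lost with no filter on dim probes (adjusted p = 0.0740 and 0.157). They were also lost with the authors' deposited p-values (adjusted p = 0.105 and 0.159).

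**Figure D2:**
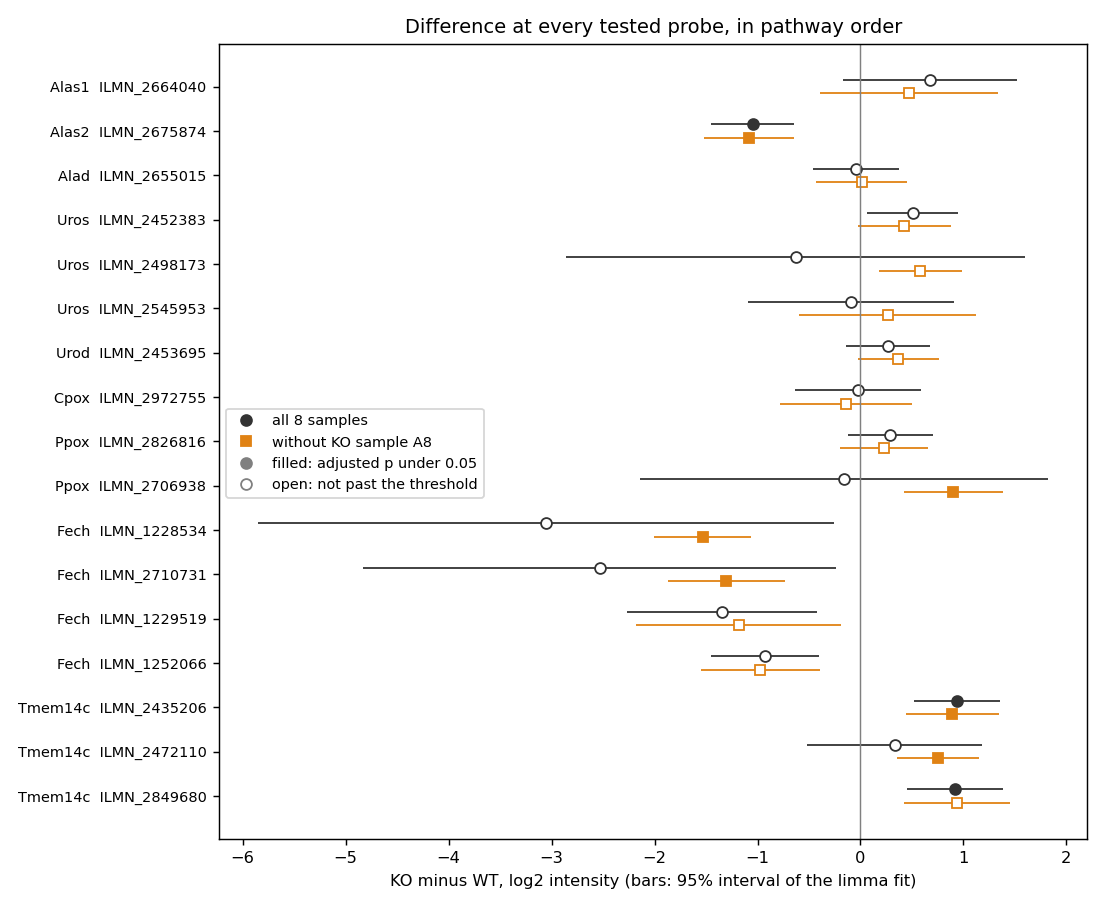
Log2 difference of KO minus WT at each of the 17 tested probes in pathway order, with 95% intervals, for all 8 samples (black) and without A8 (orange), filled where the adjusted p was under 0.05. The Alas2 and Fech probes lie to the left of 0 and the Tmem14c probes to the right, and leaving out A8 shortens the intervals most at 1 Uros, 1 Ppox, 2 Fech and 1 Tmem14c probe.

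Without A8, 3 member probes were higher and 3 lower, against 2.36% and 2.59% of all tested probes in that fit. The 3 higher were 2 of Tmem14c and 1 of Ppox, and the 3 lower were Alas2 and the 2 bright probes of Fech. The median over the 17 probes moved from -0.04 to 0.26 (11 above 0 in place of 7), and that over all tested probes was 0.07 without A8. Of all 12259 tested probes, 6779 were above 0 without A8 and 6862 with it. By 1 probe for each of the 9 genes the median moved the other way, from 0.27 to 0.23. At 4 member probes A8 was over 8-fold below the other KO samples, and it read between 1.49% and 5.43% of their median there. At other probes of the same genes A8 read 53.0% to 124% of that median, apart from 37.1% at the dim Uros probe and 31.0% at ILMN_2472110 of Tmem14c.

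**Figure D3:**
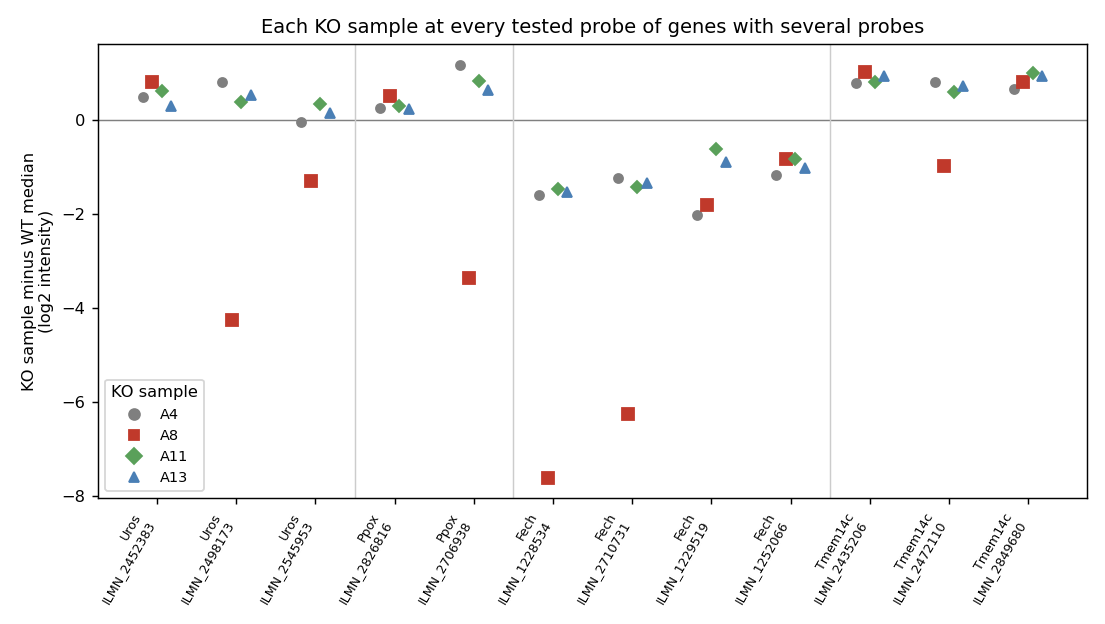
Each KO sample minus the median of the 4 WT samples (log2 intensity) at every tested probe of Uros, Ppox, Fech and Tmem14c, the 4 members with several tested probes. A8 (red squares) falls far below the other KO samples at some probes of each gene and lies among or above them at other probes of the same gene.

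Genes of late erythroblasts differed between the same samples. Of 22 symbols listed, a list drawn up with earlier results of these data in view, 15 were tested, 9 fell and none rose. Among all 7178 tested genes, 3.25% fell and 2.4% rose, which is the background for each list here. The mean log2 intensity of the 15 lay between 8.59 and 9.46 in KO samples and between 10.1 and 10.9 in WT samples. None of the 22 is a heme synthesis gene, and Epb42 was at the floor. In WT, the order of the samples by this mean (C4, C8, C9, C6) was also their order by Alas2 intensity. In KO the orders differed: by this mean A11 was highest and A8 lowest, whereas by Alas2 A4 was highest, A8 next, and A11 and A13 tied below. Genes of early erythroid cells and progenitors averaged 5.53 to 6.69 in KO and 5.17 to 5.63 in WT, with none of 5 passing and Myc and Hlf at the floor. B-cell genes averaged 6.22 to 7.58 in KO and 7.39 to 9.09 in WT, with none of 10 passing and Pax5 at the floor. None of these 10 had a difference above 0, and their median log2 difference was -1.17, against 0.11 for all tested genes. Megakaryocyte genes averaged 6.59 to 6.82 in KO samples and 5.18 to 5.66 in WT samples, with 1 of 4 higher and Ppbp and Gp1bb at the floor. Mast cell and basophil genes averaged 6.80 to 7.40 against 5.88 to 6.80, with 2 of 5 higher, 1 lower, and Ms4a2 and Tpsb2 at the floor. The means of the macrophage and of the T and NK cell lists overlapped, with Siglec1 and Cd5l at the floor among the first and 1 of 7 genes of the second lower, Cd2 (3.26-fold, adjusted p = 0.0132 in limma). The part of these cells and stages in the heme gene differences was not tested, and in sorted bulk samples fewer cells of a stage and less RNA per cell cannot be told apart.

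Around the enzymes, genes that supply, move, sense and degrade heme were taken from lists of 50 gene symbols. Of these, 46 had a probe and 36 were tested, each by its brightest tested probe. In KO 5 were higher, 2 were lower and 29 did not pass in limma, where 2.4% of all 7178 tested genes were higher and 3.25% lower. The median log2 difference was 0.29, against 0.11 for all tested genes. Without A8, 3 were higher and 2 lower.

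Among 5 tested genes of substrate supply, 2 were higher and all 5 had a difference above 0, as had 4185 of all 7178 tested genes. Shmt2, whose mitochondrial enzyme makes glycine from serine, had KO values of 146.5, 137, 158 and 155 and read 50.2 and 41.1 in C6 and C9, with C4 and C8 at the floor. It was 4.94-fold higher (adjusted p = 0.0050 in limma) and kept its call whichever sample was left out. The call was lost with no filter on dim probes (adjusted p = 0.0805) and with the authors' deposited p-values (adjusted p = 0.169). At its other probe the groups overlapped through A8, which lay at the floor (1.64-fold, adjusted p = 0.421). A4, A11 and A13 read 66.2, 82.4 and 96.5 there, against at most 56.5 in WT. Sfxn1, which brings serine into mitochondria, read 1229.9 to 1565.5 in KO samples and 578 to 909.6 in WT samples, a 1.89-fold rise (adjusted p = 0.0343, kept only without C6). At its second probe the groups overlapped (1.76-fold, adjusted p = 0.106).

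Of 7 tested transporters 2 fell and 5 did not pass. Slc25a39, a mitochondrial carrier needed for glutathione import, had KO values of 923, 892, 821 and 821 and WT values of 4771, 2133, 3981 and 3633, a 4.03-fold fall (adjusted p = 0.00339 in limma) kept whichever sample was left out. That call was lost with no filter on dim probes (adjusted p = 0.0551) and with the authors' deposited p-values (adjusted p = 0.132). Slc48a1, which carries heme out of endosomes and lysosomes, fell 2.21-fold from 2571 to 4037 in WT to 857 to 1781 in KO (adjusted p = 0.0434, kept only without A8 or C6). Slc25a37, the mitochondrial iron importer of erythroid cells, was named after its values were seen. It was 2.03-fold lower on average, with overlap between A8 (5697.5) and C6 (4799), and did not pass (adjusted p = 0.101, and 0.0313 without C6).

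**Figure D4:**
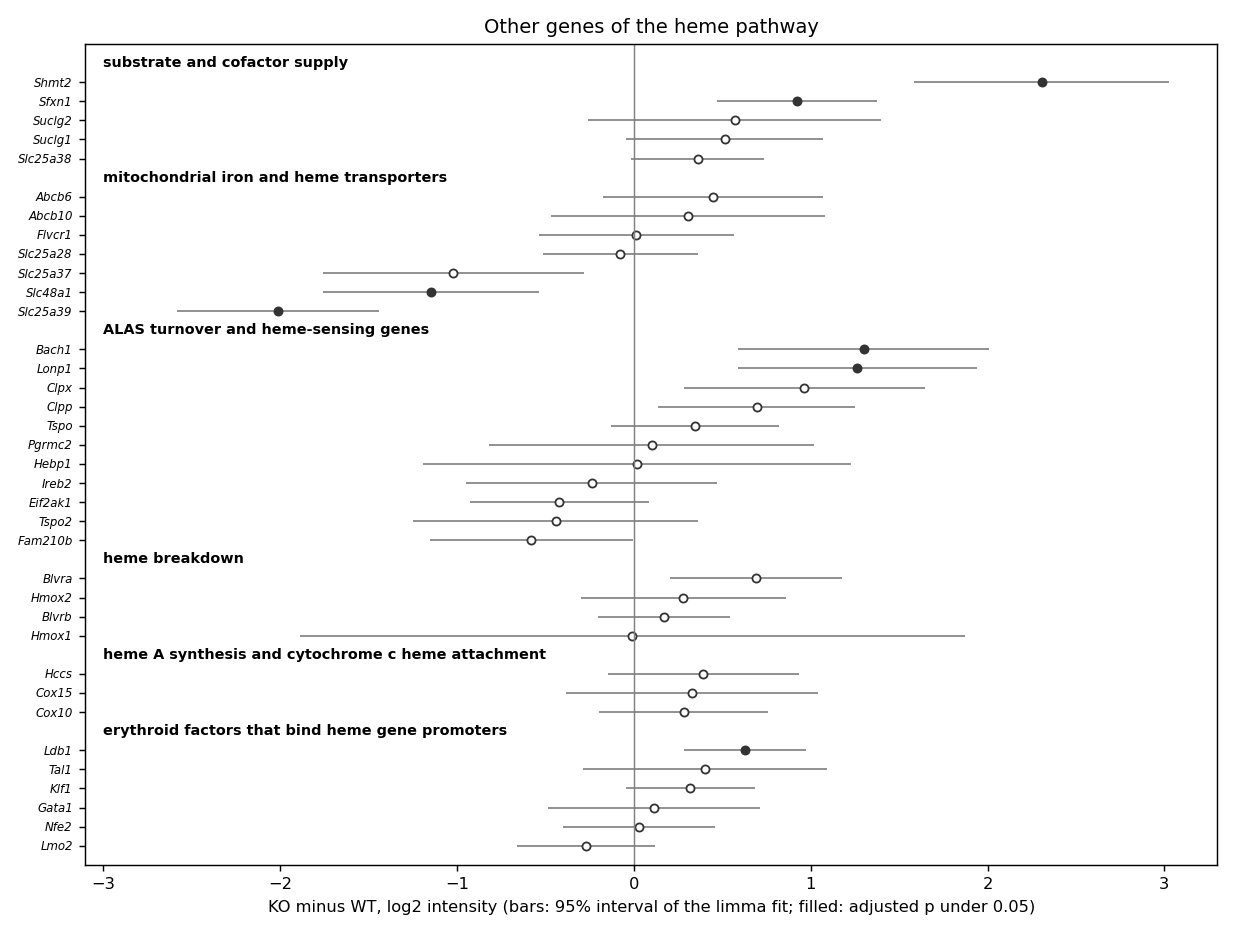
Log2 difference of KO minus WT (points) with 95% intervals for the 36 tested genes of the heme pathway outside the enzymes, grouped by role, filled where the adjusted p was under 0.05. Shmt2, Sfxn1, Bach1, Lonp1 and Ldb1 lie to the right and Slc25a39 and Slc48a1 to the left as the genes that passed.

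Of 11 tested genes for turnover of the first enzyme and for sensing of heme and iron, 2 rose and 9 did not pass. Bach1, a transcription repressor that binds heme, read 179.7 to 277 in KO samples and 54.7 to 138 in WT samples (2.46-fold higher, adjusted p = 0.0472 in limma, kept only without C6). Lonp1, the matrix protease known to degrade ALAS1, was dim, at 67.0, 30.9, 60.1 and 76.5 in KO and at most 29.9 in WT with 2 samples at the floor (2.40-fold higher, adjusted p = 0.0443, kept only without A8). With 20 added before log2 the Lonp1 call was lost (log2 difference 0.82 in place of 1.26, adjusted p = 0.0521). Of 6 tested factors that bind promoters of heme genes, Ldb1, a bridging protein of the GATA1 complex, rose 1.54-fold from 1438 to 1607 in WT to 2331 to 2432 in KO (adjusted p = 0.0477, lost whichever sample was left out). The Ldb1 call was kept with no filter on dim probes (adjusted p = 0.0107) and with the authors' deposited p-values (adjusted p = 0.0453). With the arrays centred it was lost (adjusted p = 0.0506). The other 5, Gata1 and Klf1 among them, did not pass.

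None of the 4 tested genes of heme breakdown passed with all samples (limma). Blvra, which turns biliverdin into bilirubin, came nearest at 1.61-fold higher without overlap (adjusted p = 0.0943, and 0.0369 without A8), followed by the heme oxygenase gene Hmox2 at 1.22-fold (adjusted p = 0.522). Nor did any of the 3 genes that make heme A or attach heme to cytochrome c pass, with Hccs 1.31-fold and Cox10 1.22-fold higher on average (adjusted p = 0.336 and 0.432). At an unadjusted p under 0.05 there was 1 gene in these 7, Blvra.

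The genes with the profile nearest to Alas2 were found among 7177 others by the root-mean-square difference of mean-centred log2 values over the 8 samples. The nearest was Tmem200b by its annotation (ILMN_1245858), at 0.069, followed by Zdhhc23, Mrgprg, Kctd20 and Oaz1-ps, at up to 0.143. Tmem200b had KO values of 16469.6, 15744.5, 15352 and 14380 and WT values of 35030.2, 28165, 32356 and 30186, and its WT samples stood in the same order as for Alas2. Mrgprg was at the floor in all KO samples and Zdhhc23 in 3 of them. For Tmem14c the nearest were Lsm4, Mrps16, Mrps18a, Kcmf1 and Hat1, between 0.141 and 0.148.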

How the data were processed

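RNA of 8 samples was measured on Illumina bead arrays. Each deposited value is a linear probe intensity. BeadStudio 3.1.3 is named in the submitters' processing notes, and its settings are not known. In the deposited intensities 4959 of the 5000 highest ranks agreed between arrays to 0.1 percent, the pattern quantile normalization gives, and between 73.1% and 73.2% of probes per array lay at the lowest value, 20. Such values hide changes in overall brightness and below the floor. The authors' deposited comparison table holds a score, the signed fold of KO over WT, which equals the ratio of geometric group means for all 45281 probes (relative tolerance 1e-04), and a p-value per probe. The non-normalized table was not used, since its 8 signal columns match no sample label.

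Intensities were converted to log2. Probes above the floor on at least 4 of 8 arrays were tested (12259 probes), and a fit with no covariate in limma 3.58.1 (R 4.3.3, lmFit and eBayes) gave the difference between KO and WT. P-values were adjusted by Benjamini-Hochberg over every tested probe, and calls made at 0.05. The tested probe with the highest mean stands for a gene. The fit was tested on simulated data with independent normal noise. These data had neither the floor nor an array like A8, so that test does not cover their effects. Of all probes, 34885 have 1 annotated gene, 18 have several and 10378 have none. The number of arrays limits the precision. The members, gene lists and naming rule were chosen with earlier results of these data known. The rule names all member probes, Trim28, pathway genes that passed (or the 2 with the smallest p in a list where none did) and the 5 nearest profiles. Alternatives were other filters on dim probes, an added 20 before log2, array centring, a variance trend, array weights, the authors' p-values, the mean of a gene's probes, and each sample left out. Chromosome positions are given for promoter windows only, since no genome build is named for the array.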

Additional observations from a re-analysis of the deposited data

Results flagged for a closer look

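In groups of 4, a sample was taken as far from the others where its gap to the nearest exceeded Dixon's 95% critical share of the group's range, which chance passes in about 1 in 20 groups. Of 58 groups checked at the named probes, 6 held such a sample, and in 5 it was A8. A8 was the low one at Fech ILMN_1228534 (0.979 of the range, intensity 20) and ILMN_2710731 (0.965, 22.4). It was also low at Uros ILMN_2498173 (0.919, 73.3), Ppox ILMN_2706938 (0.879, 20) and Tmem14c ILMN_2472110 (0.886, 2294.7). The remaining case was WT sample C4, the lowest of its group at Alad (0.88, 8863.4).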

How the results depend on the processing

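Alas2 was lower in every alternative, and its call was lost only without A13. With no filter on dim probes or with the authors' deposited p-values, 0 heme synthesis probes were higher. Of the other heme pathway genes 1 was then higher, Ldb1, and 0 were lower. Keeping only probes above the floor on all 8 arrays gave 2 heme synthesis probes lower and 3 other pathway genes higher, and array weights gave 2 heme synthesis probes lower, each time with Fech ILMN_1252066 added. Under that filter Shmt2 and Lonp1, with WT samples at the floor, were not tested, while Sfxn1, Bach1 and Ldb1 kept their calls. Fech ILMN_1228534, Uros ILMN_2545953 and Ppox ILMN_2706938, with A8 at the floor, were not tested either. Array weights gave 7 other pathway genes higher and 3 lower. Leaving out single samples gave 0 to 3 heme synthesis probes higher and 0 to 3 lower, and 1 to 4 other pathway genes higher and 1 to 3 lower. These counts were 2, 1, 5 and 2 with all samples. Some differences changed sign, among them those of Alad, Uros ILMN_2498173, Uros ILMN_2545953 and Ppox ILMN_2706938 when A8 was left out. With array weights the log2 difference was 0.0091 for Alad, 0.32 for Uros ILMN_2498173, 0.18 for Uros ILMN_2545953 and 0.60 for Ppox ILMN_2706938, for which adding 20 before log2 gave 0.011. Over samples left out, the log2 difference ran from -0.15 to 0.012 for Alad, -1.11 to 0.58 for Uros ILMN_2498173, -0.38 to 0.26 for Uros ILMN_2545953, -0.17 to 0.20 for Cpox and -0.61 to 0.90 for Ppox ILMN_2706938. The causes were not tested, beyond the values of A8 given above. Of the alternative values for the tested heme synthesis probes, 230 kept their direction and their side of the threshold, 17 lost a call, 9 gained one and 14 changed sign, 1 of which (Ppox ILMN_2706938 without A8) is also among the 9. The codes of both groups share 2 numbers, 4 and 8, which the labels do not state to pair samples. Deviations from the group means correlated at 0.26 between A4 and C4 and at 0.22 between A8 and C8 over the tested probes, and at 0.31 between A13 and C9, which share no number. With the number as a random replicate block, an alternative chosen after seeing the data, 2 heme synthesis probes were higher and 2 lower (Fech ILMN_1252066 added, adjusted p = 0.0354 in limma), and 5 other pathway genes higher and 2 lower. Signals at the floor and near the top of the scale limit what the array can show.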

Other observations

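In the authors' deposited table, the brightest Fech probe has a signed fold of -8.28 and an unadjusted p of 0.138, and the next has -5.79 and 0.130. The dim Fech probes have signed folds of -2.54 and -1.90 in the authors' deposited table, where their unadjusted p-values are smaller, 0.0295 and 0.0133. A ranking of Fech by that table's fold rests on sample A8, without which the bright probes differed 2.89-fold and 2.47-fold.

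The array weights estimated by limma ran from 0.307 for A8 to 3.56 for A13.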
